A study of Homo sapiens with 10 samples.

Results

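The subtelomeric 2 Mb of the human autosomes were examined here in a nucleosome map of undifferentiated human induced pluripotent stem cells (hiPSCs). The regions were the first and last 2 Mb of each autosome, counted from the outermost sequenced base of GRCh38, without the short arms of the 5 acrocentric chromosomes 13, 14, 15, 21 and 22. This rule gave 39 of the 44 autosome ends, with 77.6 Mb of sequenced bases. They held 363102 of the 12921589 positions in the deposited list, or 2.91% of the autosomal positions on 2.81% of the sequenced autosomal bases. The hiPSC line, PB010.5, bears a FUCCI reporter of the cell cycle, and its cells were treated for 5 min with micrococcal nuclease (MNase), an enzyme that digests the linker DNA between nucleosomes, in a titration of 5 amounts from 0.5 U through 1, 3 and 6 to 10 U. There was 1 library per amount, with yeast nucleosomal DNA added beforehand, and all libraries were read in a 150-bp and in a 50-bp paired-end run. The list analysed pools libraries of this 1 cell line, so amounts of enzyme could not be compared and there were no replicates. Each position is an interval of 140 bp with a score, a deposited height that comes in steps of 1.23. The median score was 14.8, or 12 steps.

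Human chromosomes end in telomeres, long arrays of the repeat TTAGGG that are bound by the shelterin complex and extended by telomerase in pluripotent cells. The subtelomere on the centromere side of these arrays is a patchwork of blocks that chromosome ends have exchanged with each other, of degenerate telomere repeats, and of tandem repeats with long units. Many subtelomeres then pass into DNA that is rich in GC and in genes. Short reads from a block that is present on several chromosomes cannot be assigned to one of them, so for every window the share of 100-base words (100-mers) that occur once in the reference was determined beside the nucleosome values.

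The outermost 60 bases of the reference, shown for 4 ends, are where these regions begin, and they differ between ends. All sequences are from the plus strand of GRCh38. Capitals mark a complete copy of TTAGGG.
17q, chr17:83247382-83247441: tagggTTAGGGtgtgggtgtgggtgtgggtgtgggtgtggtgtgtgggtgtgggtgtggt
2p, chr2:10001-10060: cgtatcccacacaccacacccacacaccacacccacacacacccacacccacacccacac
14q, chr14:106883659-106883718: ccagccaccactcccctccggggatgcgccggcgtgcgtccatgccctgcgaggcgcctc
20p, chr20:60001-60060: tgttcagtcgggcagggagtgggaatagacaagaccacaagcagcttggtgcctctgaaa
The end 17q has a degenerate TG-rich repeat at its outermost bases and 1 complete copy further in, and 2p, 14q and 20p hold none in these 60 bases. The outermost 1 kb held 18 complete copies in the orientation of the telomere at 17q and 28 at 2p, against 0 at 14q and at 20p. Of the 39 ends, 15 had no complete copy in the orientation of the telomere in their outermost 60 bases. At those 15 ends the reference does not begin in complete telomere repeats, and at every end the distance from the end is a distance from the outermost known base and not from the tip of the telomere.

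Telomere repeats in tandem were frequent in the regions, and few were overlapped by a called position. The regions held 150 runs of at least 4 TTAGGG units in tandem, in either orientation, at 32 ends, and 133 of the runs lay within 100 kb of the end. The frequency was 193 runs per 100 Mb, against 0.945 in the interior of the autosomes, although single TTAGGG hexamers were about as frequent in the subtelomeric 2 Mb (369 per Mb) as in the interior (373 per Mb) and were denser in the outermost 100 kb (989 per Mb). A called position overlapped 5 of the 150 runs, and 130 runs had no midpoint within 1 kb. Most of the runs, 134, lay beyond the outermost position of their end. For all stretches of 30 bases in the outermost 100 kb, 33.0% were overlapped by a position and 49.1% had no midpoint within 1 kb. These stretches were spread over the 100 kb, whereas many runs lay in the outermost 10 kb. There, 13 of 39 ends had any position, at 732 per Mb, against 3232 per Mb from 90 to 100 kb. Runs and stretches were not compared at equal distance. Neighbouring runs were counted singly, with 13 each at 1p and 1q, so they are not separate places. In the interior, 15 of 24 runs were overlapped and 1 had no midpoint within 1 kb. The 5 overlapped runs lay on 2q, 7p, 9q, 11p and 12p, between 98091 bp (12p) and 1961628 bp (2q) from the end.

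The outermost position lay at a median distance of 36241 bp from the end and ranged from 156 bp on 14q to 782961 bp on 1p. It was under 10 kb from the end at 13 chromosome ends and over 100 kb at 9. Its score was 12.3 ± 6.51 (SD, n = 39 ends), and the median of all positions, 14.8, lay within this spread. At 2p, which begins with no complete telomere repeat, the outermost position lay 671 bp from the end with a score of 7.40, and at 14q, which also begins with none, its score was 7.40 as well. At 17q it lay 12509 bp from the end, with the same score.

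Positions were then counted in windows of 100 kb. Every window was set against the 50 windows closest to it in GC content among 24494 interior windows. These lay at least 5 Mb from either end and were at least 90% sequenced and 50% unique, a filter not applied to the ends. The subtelomeric 2 Mb held fewer positions than interior DNA of the same GC content, and the positions had lower scores. The density was 4677 ± 505 positions per Mb against 5253 ± 287 in the matched windows (SD, n = 39 ends). The ratio was 0.890 ± 0.0808 and was below 1 at 37 of the 39 ends. Of the 1130 interior blocks of 2 Mb, matched to GC content in the same way, 27.7% were below 1. These blocks were built from the filtered windows only. Their lowest share of unique 100-mers was 91.2%, against 62.9% among the ends. The mean score was 17.9 ± 2.02 against 19.1 ± 2.25, a ratio of 0.938 ± 0.0336, and was below 1 at 38 ends, against 47.3% of the interior blocks. Against the 20 nearest windows of the same chromosome, the score ratio was 0.959 ± 0.0443, within its SD of 1, and 33 ends were below 1. The interior blocks had a density ratio of 1.01 ± 0.0359 and a score ratio of 1.00 ± 0.0302 (SD, n = 1130 blocks). The density ratio of 32 ends and the score ratio of 30 ends lay below the 5th percentile of these blocks, which was 0.952 for density and 0.956 for score. Chromosome ends and blocks are regions of 1 list and not replicates, so no p-value is given.

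**Figure D1:**
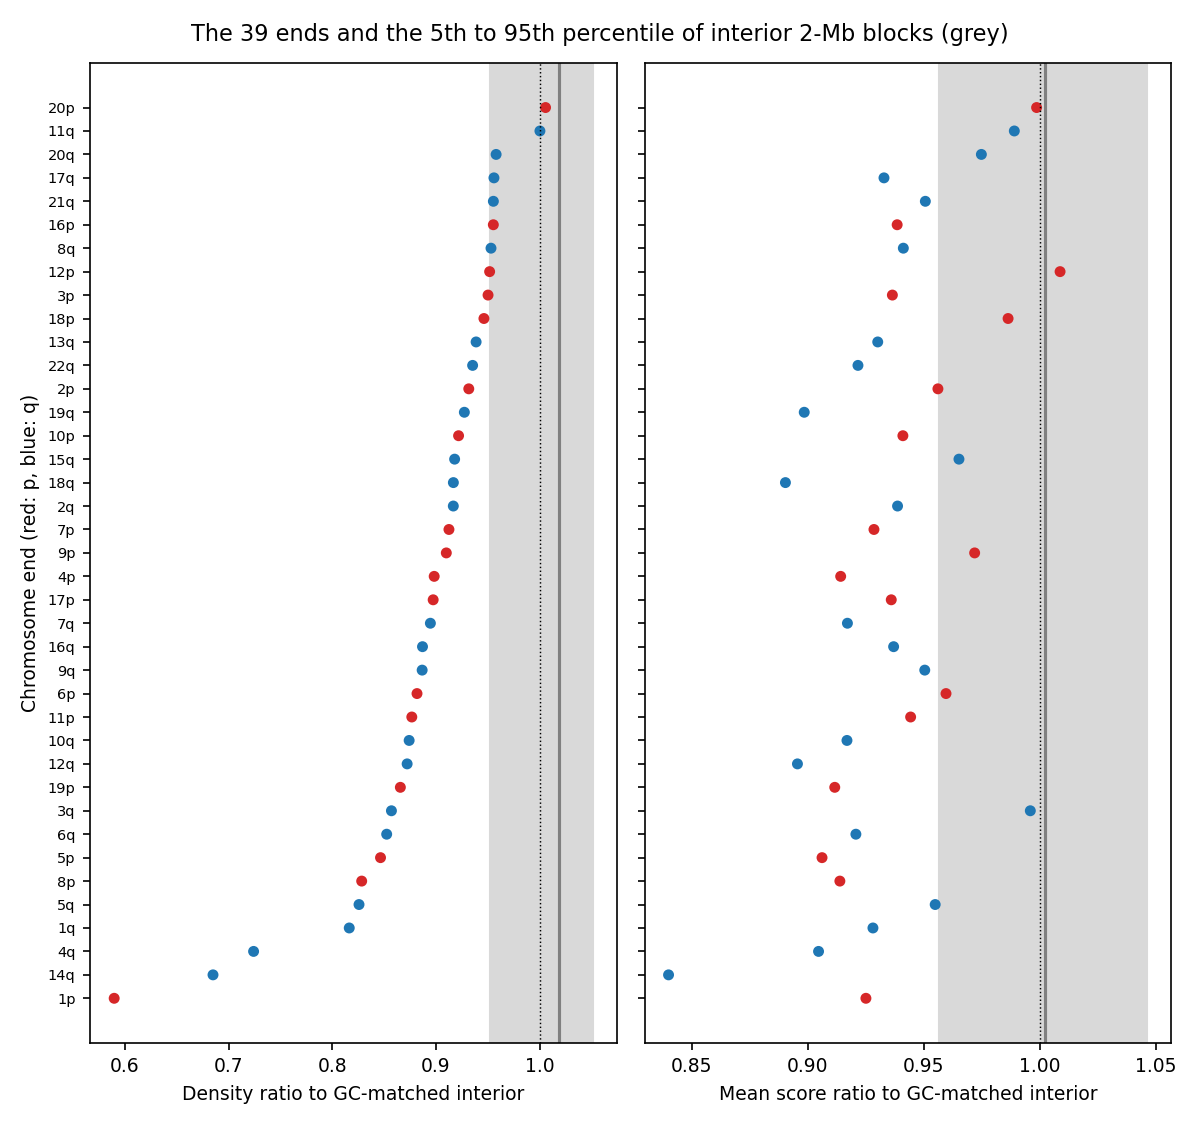
Density ratio (left) and mean score ratio (right) to GC-matched interior windows for each of the 39 chromosome ends, ordered by density ratio, with p ends in red and q ends in blue. The grey band spans the 5th to 95th percentile of 1130 interior 2-Mb blocks and the grey line is their median. In density, 37 ends lie below 1 with 1p, 14q and 4q farthest to the left, and in score 38 ends lie below 1.

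The comparison was made at equal GC content because subtelomeres are rich in GC and the score depended strongly on it. The GC content of the 39 regions was 48.9% ± 5.49, from 36.8% on 3p to 57.6% on 16p, against 40.3% ± 3.76 in the interior blocks. Without matching, the subtelomeric mean score of 17.9 was above that of the interior blocks, which was 15.4 ± 1.90, and the densities, 4677 and 4724 per Mb, were close. Thus the raw map showed higher scores at chromosome ends, and the lower values appeared when the ends were set against interior DNA of equal GC content. Across the 39 ends, which share 1 library pool, GC content had a Spearman correlation of 0.931 with the mean score and 0.585 with the density, given here as a description.

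**Figure D2:**
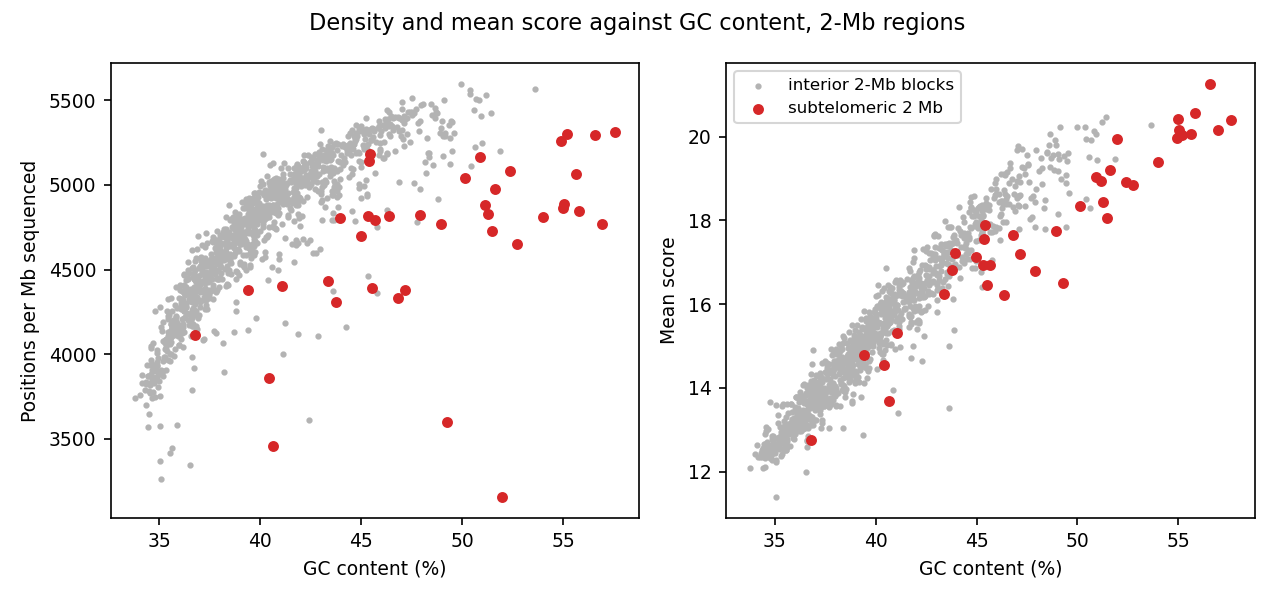
Positions per Mb of sequenced bases (left) and mean score (right) against GC content in percent, for the 39 subtelomeric regions (red) and 1130 interior 2-Mb blocks (grey). Both values rise with GC content in the interior, and most red points lie below the grey points of the same GC content, the lowest in density being 1p at 3155 per Mb.

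The deficit in density was steepest at the very end of the chromosome. In the outermost 100 kb the density ratio was 0.413 ± 0.366 (SD, n = 39 ends) and all 39 ends were below 1, with 9 ends holding no position at all. It was 0.718 ± 0.333 from 100 to 200 kb and 0.805 ± 0.294 from 200 to 300 kb. It reached 0.943 ± 0.0684 from 900 to 1000 kb, 0.953 ± 0.0809 from 1900 to 2000 kb and 0.984 ± 0.0830 from 4900 to 5000 kb. Without matching, the outer 500 kb were less dense than the inner 500 kb of the same region at 35 of the 39 ends. In the density ratio to GC-matched windows, the outer 500 kb were lower at 37 of the 39.

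The share of unique 100-mers moved with the density over the same distances. It was 60.3% ± 33.6 in the outermost 100 kb, 83.1% ± 24.4 in the next and 95.1% ± 12.1 in the third, and 98.6% ± 2.22 from 1900 to 2000 kb. Across the ends, uniqueness and density ratio had a Spearman correlation of 0.831 (n = 39 ends of 1 pooled list). Among the 11 ends whose outermost 100 kb were at least 90% unique, the density ratio of that window was 0.828 ± 0.119 against interior windows of the same kind, and all 11 were below 1. The removal of blacklisted regions by the authors also takes out positions, and its part in the result was not tested.

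The score ratio rose over a narrower range. It was 0.887 ± 0.144 in the outermost 100 kb (n = 30 ends with a position) and 0.920 ± 0.0647 from 200 to 300 kb (n = 35). With all 39 ends, it was 0.932 ± 0.0646 from 900 to 1000 kb, 0.944 ± 0.0558 from 1900 to 2000 kb and 0.960 ± 0.0503 from 4900 to 5000 kb. In the windows from 4000 to 5000 kb its mean lay between 0.956 and 0.971, and between 23 and 35 of the 39 ends were below 1, the most in the last of these windows, where 19 ends were below 1 in density. Uniqueness and score ratio had a Spearman correlation of 0.232 over the 39 ends, and the score ratio was lower in the outer than in the inner 500 kb at 27 of the 38 ends with a position in both, with means of 0.921 ± 0.0452 and 0.946 ± 0.0406.

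**Figure D3:**
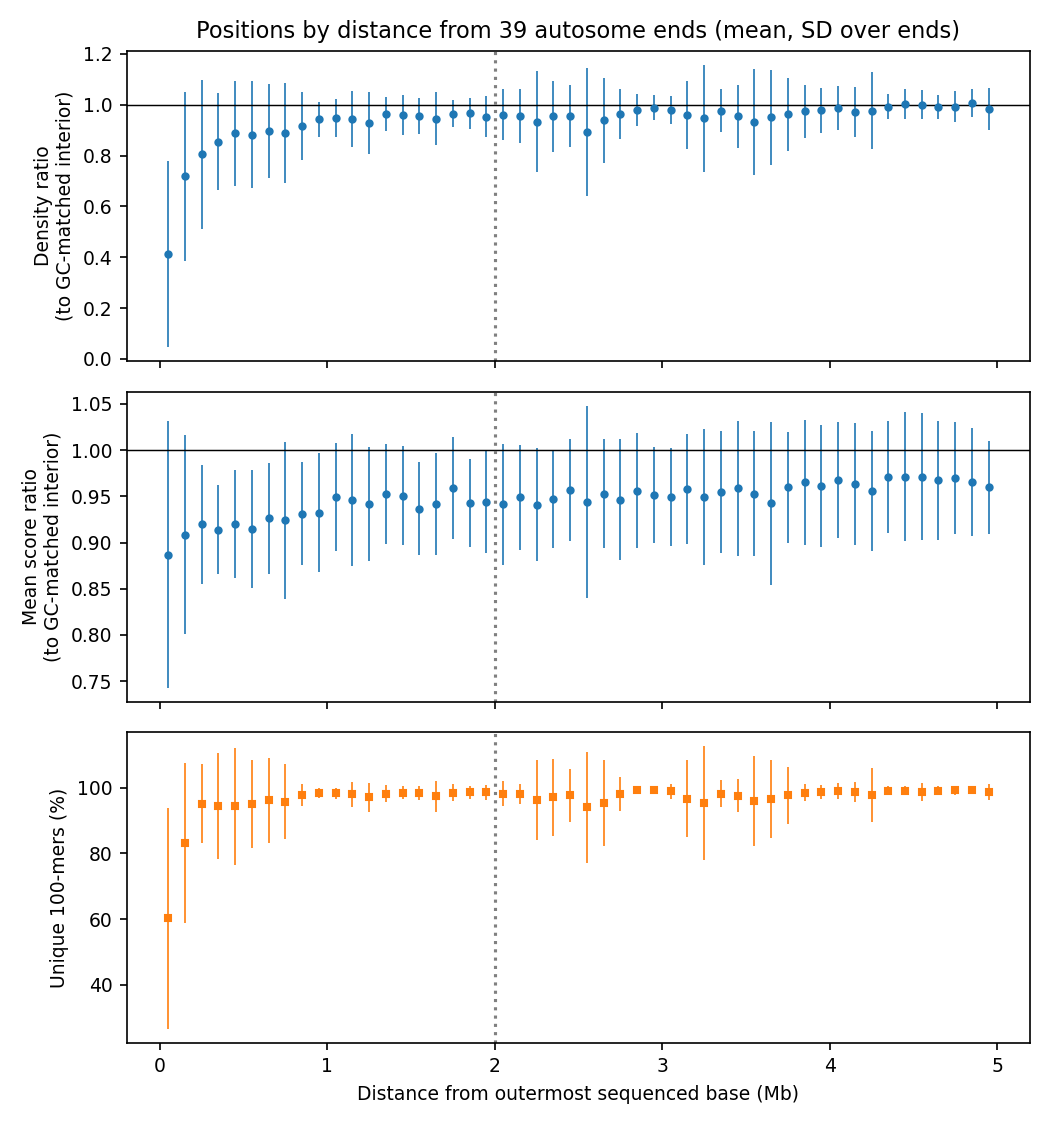
Density ratio and mean score ratio to GC-matched interior windows, and the share of unique 100-mers in percent, in windows of 100 kb by distance in Mb from the outermost sequenced base. Points are means and bars are SDs over the 39 ends, so bars can pass 100%. Score points use only the ends with a position in the window, which were 30 in the outermost, 36 in the next and 35 in the third. The dotted line marks 2 Mb. Density and uniqueness rise together over the first 300 kb, while the score ratio remains between 0.887 and 0.971 throughout.

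Windows of the same class of uniqueness were compared next, and some of the 780 subtelomeric windows did not enter this comparison. Among the 360 subtelomeric windows in which at least 99% of 100-mers were unique, the density was 5169 per Mb against 5399 in interior windows of the same class and GC content, a ratio of 0.957, and the score ratio was 0.949. In the 347 windows between 90% and 99%, the ratios were 0.933 and 0.953, with 96.95% unique 100-mers at the ends and 97.3% in the interior. The 41 windows between 50% and 90% had more positions than their interior counterparts, with a density ratio of 1.06, at 77.7% against 75.1% unique 100-mers, and a score ratio of 0.990. The regions held 27 windows under 50%, and the 22 of them compared had 206 positions per Mb against 268. Here the mean score was higher at the ends, at 14.6 against 13.6, a ratio of 1.07 over 453 positions. Of these 22 windows, 20 lay in the outer 500 kb. Subtelomeres also held more tandem repeats, which made up 2.98% ± 1.44 of the bases against 0.693% ± 0.140 in the matched windows, with more at all 39 ends. With windows of at least 90% unique 100-mers matched on both GC content and tandem repeats, the density ratio was 0.943 ± 0.0463, below 1 at all 39 ends, and the score ratio was 0.970 ± 0.0335, below 1 at 33.

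The ends were not alike. The lowest density ratio, 0.590, was that of 1p, which held no position in its outer 500 kb and had 62.9% unique 100-mers. The next was 14q with 0.685, which was also lowest in score, with a ratio of 0.840, and had 93.3% unique 100-mers. On 4q the density ratio was 0.724 and on 1q it was 0.816. At the other extreme, 20p reached 1.006 and 11q 1.000, with unique shares of 98.9% and 98.7%. In score, 18q (0.890) and 12q (0.895) followed 14q from below, and 12p (1.009), 20p (0.999) and 3q (0.996) were highest. The 17 p ends and the 22 q ends had density ratios of 0.892 ± 0.0897 and 0.889 ± 0.0755 and score ratios of 0.946 ± 0.0308 and 0.932 ± 0.0350, so the arms differed by less than the spread among ends.

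The outer part of the 14q region holds the immunoglobulin heavy chain locus, whose variable, diversity and joining segments are recombined in B cells. All 173 annotated IGH segments of the regions lay there. They held 3322 positions per Mb with a mean score of 14.6, and 67 of the short segments contained no midpoint. Over the regions, 25 of 1263 protein-coding genes, 88 of 1172 lncRNA genes and 172 of 527 pseudogenes contained none. The segments were not compared with other intervals of their length. The density in the outer 500 kb of 14q was 2960 per Mb with a mean score of 12.0, against 5042 per Mb and 20.9 in its inner 500 kb. These parts differed in GC content, which was 41.4% and 56.3%. Against windows of the same GC content, the density ratio was 0.605 in the outer and 0.904 in the inner part, and the score ratio was 0.756 and 0.958. The median distance between neighbouring positions on 14q was 190 bp against 170 bp in its matched windows, the widest difference of the 39 ends. The end 1q had 62 protein-coding starts against 10.9 expected from its matched windows, a median spacing of 190 bp against 180 bp and a mean score of 14.6.

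Because GC content varies within a window, scores were also compared position by position at equal GC content of the 140-bp interval itself. In all 6 classes of GC content the difference between ends and interior was less than the SD over ends, and the number of lower ends varied between classes. Interior blocks were not compared in this way, so no share of lower blocks stands beside these numbers. Positions of 40% to 49% GC had a mean score of 16.0 ± 0.699 (SD over 39 ends) at the ends and 16.5 in the interior, and 33 of 39 ends were lower. For 50% to 59% GC the scores were 19.5 ± 0.939 and 20.2, with 34 of 39 ends lower, and for 60% to 69% they were 22.9 ± 1.70 and 23.6, with 32 of 39 lower. Positions of 30% to 39% had 12.0 ± 0.471 and 12.2, with 24 of 39 ends lower, and those of 20% to 29% had 9.42 ± 0.350 and 9.52, with 23 of 38 lower. In the most GC-rich class the mean at the ends was the higher one. Positions of 70% to 79% GC had a mean score of 23.2 ± 1.93 at the ends against 21.5 in the interior, and 13 of 37 ends were lower. These very GC-rich positions made up 3.64% of subtelomeric and 0.391% of interior positions.

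**Figure D4:**
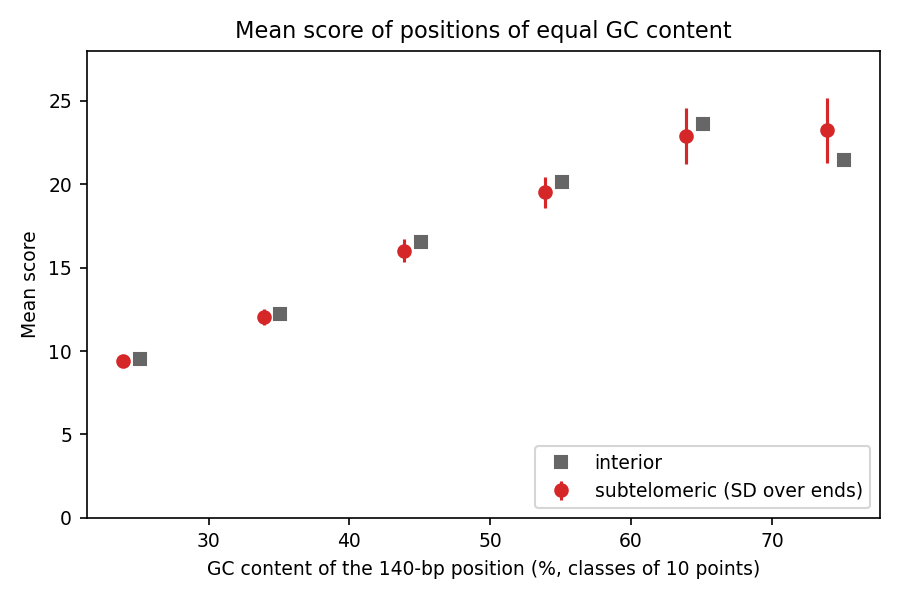
Mean score of positions against the GC content of their own 140-bp interval, in classes of 10 percentage points, at the subtelomeric ends (red, bars are SDs over ends) and in the interior (grey). Red points lie slightly below grey points up to 69% GC and above them in the class from 70% to 79%, at 23.2 against 21.5.

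At equal GC content of the interval, scores inside and outside genes were also set side by side. Positions inside protein-coding genes, 58.0% of the subtelomeric and 48.2% of the interior positions, had a mean score of 18.5 where interior genic positions of the same GC content predicted 19.5. The ratio was 0.950 ± 0.0282 (SD, n = 38 ends) and lay below 1 at 36 of the 38. Outside protein-coding genes the mean score was 17.4 with 17.7 predicted, a ratio of 0.984 ± 0.0468 that was within its spread of 1 and below 1 at 25 of 39 ends. The difference between these classes was not tested. Positions within 500 bp of a tandem repeat had a ratio of 0.978 ± 0.0423 and those without one 0.970 ± 0.0356, both within their spread of 1 and below 1 at 25 and 33 of 39 ends. The share of interior blocks below 1 was not determined for these genic and repeat classes.

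The median distance between neighbours differed little when all positions were used, and the mean distance was longer at most ends. The median distance between neighbouring midpoints was 170 bp in the pooled subtelomeric regions and 170 bp in the matched windows, with quartiles of 130 and 225 bp against 130 and 220 bp. Over single ends the difference in the median was 2.64 bp ± 4.91 (SD, n = 39 ends), which is less than its SD, and 94.4% of the midpoints lie on 1 grid of 10 bp. The median was longer than in the matched windows at 12 ends and shorter at 1, while 10.4% of interior blocks had a longer median. The mean distance, which long gaps enter, was 208 bp ± 22.0 against 193 bp ± 11.01 and was longer than in the matched windows at 37 of 39 ends. In the 1130 interior blocks it was 214 bp ± 20.4 against 219 bp ± 18.8 in their matched windows. The share of interior blocks with a longer mean is not given here. When positions scoring below the median were dropped, the difference in the median distance was 16.0 bp ± 19.5, and no end had a shorter median than its matched windows. Distances over all pairs of positions, counted to follow the regularity of neighbouring nucleosomes, had maxima at 200, 380, 570 and 770 bp at the ends and at 190, 390, 560 and 760 bp in the matched windows. The maximum near 200 bp was 1.14 times the mean frequency from 1000 bp onwards at the ends and 1.16 times in the matched windows. This first maximum was 1.06 times the minimum before it at the ends and 1.09 times in the matched windows. The next maximum was 1.21 and 1.23 times the minimum before it, the following one 1.10 and 1.13 times, and the last 1.07 times in both.

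**Figure D5:**
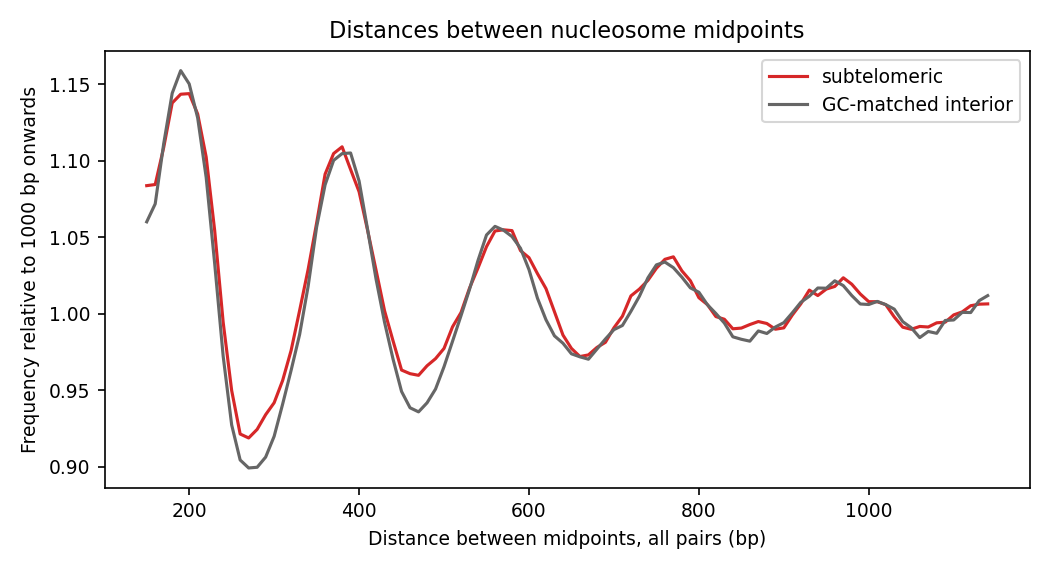
Frequency of distances between all pairs of midpoints, in bp and relative to the mean frequency from 1000 bp onwards, for the subtelomeric regions (red) and GC-matched interior windows (grey). Both curves have maxima near 200, 380, 570 and 770 bp within 10 bp of each other, and the minima near 270 and 470 bp are shallower at the ends.

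Long stretches with no position were more frequent at the ends. Neighbouring midpoints were 1 kb or more apart in 1664 places, or 21.4 per Mb, against 7.04 per Mb in the matched windows. The matched windows were at least 90% sequenced and 50% unique, and the ends were not filtered. How much of the difference comes from this filter was not tested. Stretches of 1 kb or more, those at the very ends included, covered 8.74% of the sequenced subtelomeric bases and 1.75% of the matched bases. Their median length was 1390 bp, and 135 lay in the outer 100 kb. In 407 of them (24.5%) all sampled 100-mers were unique, and 687 (41.3%) consisted of at least 20% tandem repeat, with 162 (9.74%) meeting both criteria. Of the stretches in the matched windows, 25.5% were all unique, 12.0% at least 20% tandem repeat and 4.29% both. Repeat content was unequal among the subtelomeric stretches, with a mean of 29.4% per stretch and a median of 1.70%, and the mean per stretch in the matched windows was 6.73%. Stretches of 10 kb or more between positions numbered 50, at 22 ends. Stretches of this length made up 5.29% of the sequenced bases at the ends and 0.617% in the matched windows. Of the 45 that were at least 90% sequenced, 19 were under 50% unique and 16 at least 90% unique. This split was not made for the matched windows. With the bases of all stretches of 10 kb or more left out on both sides, the density ratio of the 2 Mb was 0.932 ± 0.0485 and below 1 at 38 ends.

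Both of the following tandem repeats lie in a stretch without positions in which all sampled 100-mers were unique. They come from the 162 stretches that met both criteria and are not typical of the 1664. The first repeat unit is in capitals, and both are on the plus strand.
9q, chr9:137329023-137329082: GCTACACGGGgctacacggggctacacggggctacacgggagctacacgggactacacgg
2q, chr2:241589954-241590070: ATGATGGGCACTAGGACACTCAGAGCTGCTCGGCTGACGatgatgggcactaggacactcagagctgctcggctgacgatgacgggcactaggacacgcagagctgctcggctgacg
The sequence on 9q has a unit of 10 bp and lies in EXD3, which encodes a protein with an exonuclease-like domain, outside its exons, where neighbouring midpoints were 4070 bp apart. The sequence on 2q has a unit of 39 bp and lies in THAP4, a gene for a THAP-domain protein, also outside its exons, where midpoints were 2840 bp apart. Tandem repeat made up 54.2% and 34.2% of these stretches. A fragment can be unique as a 100-base word in the reference and still differ in copy number in the cells, which was not examined here.

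Gene classes differed in positions per Mb and in their share of unique 100-mers. The 1263 protein-coding genes that start in the regions, 16.3 per Mb against 18.3 per Mb in the matched windows, held 5028 positions per Mb with 97.9% unique 100-mers, and 25 of them (1.98%) contained no position. The 1172 lncRNA genes held 4230 per Mb at 89.8%, and 88 of them contained no position. The 527 pseudogenes held 2522 per Mb at 66.7%, and 172 of them contained none. The gene families that follow were taken by symbol prefix from all gene types, so not every member need be protein-coding. The 7 WASH members, a family named after an actin nucleation-promoting factor on endosomes and copied at many chromosome ends, held 197 per Mb at 29.8%. Of these members, 5 contained no position, and WASHC1 on 9p held 23 positions. Of 18 OR4F olfactory receptor genes, 13 contained none, and the family held 2369 per Mb at 54.0% unique, more than the TUBB8 genes at a higher unique share. The 5 TUBB8 genes, a β-tubulin family known from the oocyte spindle, held 1831 per Mb at 87.1%. The 99 ZNF zinc finger genes held 4775 per Mb at 98.4%, with a position in every gene.

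The protein-coding gene that starts closest to each end was taken as a sample of the outermost genes. Its start lay at a median of 64388 bp from the end, from 15771 bp for PARD6G on 18q to 1357135 bp for TMEM121 on 14q. Of the 39 genes, 14 were under 90% unique, and 10 contained no position, 8 of them among those 14, where 1.98% of all protein-coding genes of the regions contained none. The exceptions were DUSP22 on 6p, which encodes a dual-specificity phosphatase, and MZF1 on 19q, which encodes a zinc finger factor of the myeloid lineage. DUSP22 is 99.8% unique, yet it lay inside a stretch of 126400 bp between midpoints. MZF1 is 100% unique and lay beyond the outermost position of 19q, which was 69014 bp from the end. Whether positions in either gene were taken out with the blacklisted regions was not tested. In 11 genes the start was beyond the outermost position, and in 24 of the other 28 the midpoints on either side of it were under 500 bp apart. Over these 28 starts the median gap between the flanking midpoints was 285 bp, and the first midpoint downstream lay at a median of 128.5 bp with a median score of 17.9.

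The outermost genes of the ends with extreme score ratios were read in full. On 3q, LMLN, which encodes a leishmanolysin-like metallopeptidase, had its first downstream position (chr3:197960302-197960441) at a distance of 172 bp and a score of 55.5, higher than 99.97% of the positions on its chromosome, and the nearest upstream position 208 bp away with a score of 37.0. On 20p, DEFB125, a β-defensin gene, had 4.94 downstream (chr20:87307-87446) and 7.40 upstream. On 12p the start of IQSEC3, which encodes an exchange factor for ARF GTPases, lay beyond the outermost position, and its body held 4942 positions per Mb with a mean score of 20.5. Among the ends with low ratios, PARD6G on 18q, which encodes a cell polarity protein, had scores of 25.9 downstream and 23.4 upstream with midpoints 310 bp apart. ANHX on 12q, a homeobox gene, had 6.17 and 18.5 with midpoints 120 bp apart, and TMEM121 on 14q, which encodes a transmembrane protein, had 13.6 and 9.87 with midpoints 100 bp apart. At these few starts the scores did not follow the ratio over 2 Mb, and ranged from 4.94 to 55.5 among the ends with high ratios alone. Over all 28 starts with a downstream score, the relation was not tested.

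TERT, the catalytic subunit of telomerase, starts 1285067 bp from the end of 5p. Its first downstream position (chr5:1294892-1295031) had a score of 19.7 and its nearest upstream position (chr5:1295112-1295251) 9.87, with midpoints 220 bp apart around the start, and its body held 216 positions, or 5152 per Mb, close to the value for all protein-coding genes. The α-globin genes HBA1 and HBA2, a near-identical pair 166679 and 162875 bp from the end of 16p, were 37.5% unique and held 2 and 3 positions. Reads of this pair cannot be told apart over most of their length, and their values are uncertain.

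Around protein-coding starts the +1 nucleosome had 1.50 times the density of the flanks both at the ends and in the interior. Midpoints around the 1263 starts were set against 5 interior starts of similar GC content for each. The +1 nucleosome, the first downstream of the start, was at 135 bp with a mean score of 25.5 ± 3.76 (SD, n = 27 ends), against 125 bp and 25.1 at the matched starts. The nucleosome upstream was at -195 bp with 1.12 times the flanking density, against -215 bp and 1.16 times. The 200 bp upstream of the start held 0.844 times the flanking density at the ends and 0.832 times in the interior. The mean score of the flanks was 19.1 ± 1.75 against 18.4. At the +1 nucleosome and in the flanks the scores at subtelomeric starts differed from the interior by less than the spread between ends. The upstream nucleosome had a mean score of 23.2 at the ends and 23.5 at the matched starts.

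The highest-scoring positions of the regions lay in GC-rich DNA at some distance from the end. The following 3 are shown with CpG dinucleotides in capitals, on the plus strand.
9q, chr9:137035512-137035651: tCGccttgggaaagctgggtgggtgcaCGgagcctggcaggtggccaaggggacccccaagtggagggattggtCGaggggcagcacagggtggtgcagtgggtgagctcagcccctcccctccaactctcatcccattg
4p, chr4:2009062-2009201: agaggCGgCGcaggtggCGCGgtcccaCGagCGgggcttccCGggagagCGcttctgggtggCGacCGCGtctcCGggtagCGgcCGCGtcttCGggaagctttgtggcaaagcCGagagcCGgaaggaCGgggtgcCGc
12q, chr12:132908282-132908421: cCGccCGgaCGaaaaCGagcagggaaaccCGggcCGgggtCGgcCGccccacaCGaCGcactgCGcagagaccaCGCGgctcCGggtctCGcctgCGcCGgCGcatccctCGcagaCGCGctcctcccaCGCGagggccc
The position on 9q, in an exon of LINC02908 and inside the protein-coding gene model ENSG00000279073, had the highest score of the regions, 109.8, and 10 autosomal positions scored higher. It holds 3 CpGs at 65.7% GC. The position on 4p had a score of 104.9 with 20 CpGs at 72.9% GC and lies 32771 bp inside NELFA, which encodes a subunit of the negative elongation factor. The position on 12q had a score of 87.6 with 23 CpGs at 76.4% GC and lies in CHFR, a ubiquitin ligase gene of a mitotic checkpoint. The other 2 of the highest 5 were on 2q, 176 bp from the SNED1 start, scoring 93.8, and on 19q in ZNF749 with a score of 91.3. High scores were thus reached with few CpGs as well as with many.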

How the data were processed

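The authors trimmed paired-end MNase-seq reads with Trimmomatic 0.40, aligned them to GRCh38 and used the nucMACC workflow, with blacklisted regions taken out. The runs pooled for the deposited list and its position caller are not given in the sources used here. The methods state that profiling on the 50-bp runs failed and that these runs were not taken further. The same libraries were then sequenced again in the 150-bp run. The methods give read totals for the runs, but the deposited score is a signal of unstated scaling that is not tied to them. The depth behind a score and its sampling error are therefore unknown. Midpoints are start + 70. Chromosome lengths were checked against hg38, and genes are from GENCODE 44 (the study used 48). Windows of 100 kb were matched by GC content to the 50 nearest interior windows, at least 5 Mb from the ends, 90% sequenced and 50% unique, of 25878. Uniqueness was sampled every 100 bases. Tandem repeats are bases that start a 20-mer seen in the preceding 2000 bases. Members and lists were chosen with earlier results of these data known. Named genes were the outermost protein-coding gene of each end, in full for the 3 highest and 3 lowest score ratios, genes at the 5 highest positions, TERT, HBA1 and HBA2. EXD3, THAP4, DUSP22 and MZF1 were named after their values were seen. The IGH count, the split by genes and repeats and 6 of the 51 alternative values were added after seeing the data. Python 3.11.15, NumPy 2.4.6, pandas 2.3.3, numba 0.67.0 and matplotlib 3.10.9 were used, and the calculations were tested on simulated data. The outermost sequence of some ends is not reported here.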

Additional observations from a re-analysis of the deposited data

How the results depend on the processing

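The 5 main ratios and differences were recomputed under 15 alternative settings, not all of which apply to each, which gave 51 values. Of these, 45 moved by less than the SD over ends, and none changed direction. The density ratio of the 2 Mb lay between 0.825 (outer 1 Mb) and 0.943 (at least 90% unique windows matched on GC content and tandem repeats, added after seeing the data) in all but one alternative, and the mean score ratio between 0.925 and 0.970 in all but one. The exception for both was the 2% of positions with the highest score, which gave 0.654 for density and 0.990 for score, and a spacing difference of 2507 bp with an SD of 6728 bp. The score ratio lay within its SD of 1 in 3 alternatives, at 0.959 ± 0.0443 with windows of the same chromosome, 0.970 ± 0.0335 with matching on repeats and 0.990 ± 0.0109 with the 2% of highest score. With the median score in place of the mean, 27 of 39 ends were below 1. The spacing difference was 16.0 bp when positions below the median score were dropped. In the outermost 100 kb the density ratio of 0.413 became 0.828 with windows of at least 90% unique 100-mers, which leaves 11 ends, and 0.836 with these matched on repeats as well, and it was 0.743 (30 ends) with bases in stretches of 10 kb or more without a position left out. With each position matched by the GC content of its own interval, the score ratio was 0.962, and per base that starts a unique 100-mer the density ratio was 0.924. For 135 of the 780 windows, the matched windows differed by more than 0.5 points of GC, and without these windows the ratios were 0.864 and 0.935. No paired analysis was possible because libraries were pooled and there is no column per sample, and for the same reason no library could be left out. Scores come in steps and 94.4% of midpoints lie on a 10-bp grid, and the reads behind a position are unknown.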
